A study of Mus musculus with 2 samples.

Results

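The glycolysis and hypoxia response genes described here are 34 genes, taken by symbol from the 55357 rows of the gene table. They comprise 3 glucose and lactate transporters, 13 glycolytic enzymes, 3 regulators of glycolytic flux, 3 genes of the oxygen sensor (Hif1a, Egln1 and Egln3) and 12 other genes known to be induced by low oxygen. All 34 symbols were found in both libraries, and Aldoa stood on more than 1 row, whose UMIs were summed.

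The cells came from hearts of wild-type mice on day 7 after a myocardial infarction (MI), in which blocked blood flow kills part of the heart muscle. Mice of the anti-PD1 group received injections of anti-PD1, an antibody that binds a receptor known to restrain activated T cells. Mice of the anti-IgG group received anti-IgG as the comparison, and both groups had an MI, so no uninjured heart is in the comparison. Each group was 1 droplet-based 3′ library, the sources used here do not state how many hearts were pooled, and no difference below has a replicate check or a p-value. The series design names sorted T cells, while the protocol in the labels describes tissue digestion and the removal of red and dead cells, with no sort.

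After removal of cells with under 300 genes, under 500 UMIs (unique molecular identifiers, which count captured RNA molecules) or over 10% mitochondrial UMIs, 5835 anti-PD1 and 4309 anti-IgG cells were kept. T-lineage cells, with at least 1 UMI of Cd3d, Cd3e or Cd3g and without the markers of another cell type, numbered 4997 (85.6%) in the anti-PD1 library and 3758 (87.2%) in the anti-IgG library. Their median depth was 3739 UMIs per cell in the anti-PD1 library and 3960 in the anti-IgG library. The libraries shared 47 cell barcodes. Levels are given as CPM, the UMIs of a gene per 1000000 UMIs of the same cells, and ratios are levels in the anti-PD1 over those in the anti-IgG library. All intervals are 95% intervals that cover counting error only. They treat each UMI as drawn singly, so a gene with many UMIs in a few cells has a wider true error than its interval. Levels are compared between libraries and cell types, not between genes.

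Glycolysis splits glucose into pyruvate, and activated T cells are known to raise glucose uptake and to pass much of the pyruvate on to lactate. Hypoxia-inducible factor 1 (HIF-1) is built when the alpha subunit encoded by Hif1a escapes the prolyl hydroxylases, which use oxygen to mark it for destruction. HIF-1 switches on most glycolytic genes together with genes for cell survival, vessel growth and fat storage, and the same factor accumulates in activated T cells and type 17 cells when oxygen is not limiting.

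HIF-1 binds DNA at a short core, ACGTG or GCGTG, so the promoters of the members are shown for what they share. In the RefSeq promoter table (build GRCm38.p6), 31 of the 34 genes were matched, and Bnip3l, Ndrg1 and Slc2a3 were not. The 250 bases before each annotated start were searched on both strands. A core was found before at least 1 start of 28 of the 31 genes (90.3%), against 41.5% of all 27025 genes in the table. Of the matched members whose level in T-lineage cells was at least 1.5 times higher in the anti-PD1 library, 5 of 5 had a core, as had 23 of the other 26. Of the 5, Hilpda, Mxi1 and Vegfa each also had a window with 0 cores. Neither start of Vegfa was matched to the opening of a GENCODE transcript, so its core was not placed in a checked promoter. The same holds for Adm, Egln3, Hif1a, Higd1a and Pgam1, which count among the genes with a core. By window, 34 of 46 windows of members (73.9%) and 38.6% of all 32851 windows held a core. Among members at 1.5 or more, 6 of 9 windows held a core, and among the other members 28 of 37. The promoters below are the 250 bases before a start, 5′ to 3′ on the strand of the gene, with each core or its reverse complement (CACGT or CACGC) in capitals. Hk2, Slc16a3 and Mxi1 had higher levels in anti-PD1 T cells, and Bnip3, Ankrd37 and P4ha1 are hypoxia genes with ratios close to 1. For Hilpda, whose promoter window runs past another annotated start, 29 bases around its ACGTG are given. In the Bnip3 promoter 1 stretch, CACGTG, is also an E-box and is read as a core on both strands. A match is a run of letters and not a measured binding site.
Hk2, chr6:82774455-82774704 (-): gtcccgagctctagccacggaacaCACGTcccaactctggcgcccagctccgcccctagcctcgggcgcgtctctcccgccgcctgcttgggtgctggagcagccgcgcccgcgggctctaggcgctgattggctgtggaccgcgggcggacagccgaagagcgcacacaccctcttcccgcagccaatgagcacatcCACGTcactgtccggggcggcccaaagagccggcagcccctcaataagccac
Slc16a3, chr11:120948817-120949066 (+): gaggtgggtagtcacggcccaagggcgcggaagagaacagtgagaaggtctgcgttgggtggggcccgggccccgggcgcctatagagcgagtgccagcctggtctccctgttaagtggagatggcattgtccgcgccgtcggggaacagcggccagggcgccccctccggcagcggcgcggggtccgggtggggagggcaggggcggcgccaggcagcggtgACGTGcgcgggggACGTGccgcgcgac
Mxi1, chr19:53329163-53329412 (+): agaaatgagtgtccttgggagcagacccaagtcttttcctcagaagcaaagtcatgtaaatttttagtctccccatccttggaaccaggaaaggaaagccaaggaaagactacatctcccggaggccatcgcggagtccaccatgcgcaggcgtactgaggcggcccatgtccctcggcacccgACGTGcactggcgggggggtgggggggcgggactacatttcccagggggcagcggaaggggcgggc
Hilpda, chr6:29272571-29272599 (+): gatggccagcggACGTGccccagggcgag
Bnip3, chr7:138909507-138909756 (-): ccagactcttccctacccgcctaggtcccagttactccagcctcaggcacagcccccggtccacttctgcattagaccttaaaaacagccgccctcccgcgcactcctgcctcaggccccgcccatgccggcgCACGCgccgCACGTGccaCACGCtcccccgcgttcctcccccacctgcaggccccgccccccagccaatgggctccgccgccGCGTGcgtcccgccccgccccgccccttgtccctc
Ankrd37, chr8:45999851-46000100 (-): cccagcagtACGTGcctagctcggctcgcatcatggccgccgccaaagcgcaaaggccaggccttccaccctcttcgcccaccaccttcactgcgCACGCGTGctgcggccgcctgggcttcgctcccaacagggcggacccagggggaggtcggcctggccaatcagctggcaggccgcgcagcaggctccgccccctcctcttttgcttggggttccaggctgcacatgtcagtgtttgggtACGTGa
P4ha1, chr10:59323046-59323295 (+): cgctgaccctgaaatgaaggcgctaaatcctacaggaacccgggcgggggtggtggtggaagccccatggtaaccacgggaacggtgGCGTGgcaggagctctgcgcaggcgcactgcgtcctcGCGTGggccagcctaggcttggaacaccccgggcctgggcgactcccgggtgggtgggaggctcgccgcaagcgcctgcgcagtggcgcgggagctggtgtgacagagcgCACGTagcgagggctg

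In T-lineage cells a small set of these genes was far higher in the anti-PD1 library, while the glycolytic enzymes as a group were not. Of the 33 members with at least 50 summed UMIs, 6 had a ratio of at least 1.5 (18.2%), against 6.28% of the 11896 genes with as many UMIs. These were Hk2, Vegfa, Hilpda, Ndrg1, Mxi1 and Slc16a3. No member had a ratio of 1/1.5 or less, against 9.7% of all genes. The median log2 ratio of all genes was -0.106, and 36.8% of them were higher in the anti-PD1 library. Relative to that median, 7 members reached 1.5 (Pfkfb4 was added) and 0 reached 1/1.5, against 8.01% (at least 1.5) and 6.7% (1/1.5 or less) of all genes. Slc16a3 at 1.71 lay closest inside the threshold of 1.5, and Pfkfb4 at 1.42 and Slc2a1 at 1.36 lay closest outside it. Adm, the secreted peptide adrenomedullin, had 6 UMIs in anti-PD1 T-lineage cells and 0 in anti-IgG T-lineage cells, too few for a ratio.

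**Figure D1:**
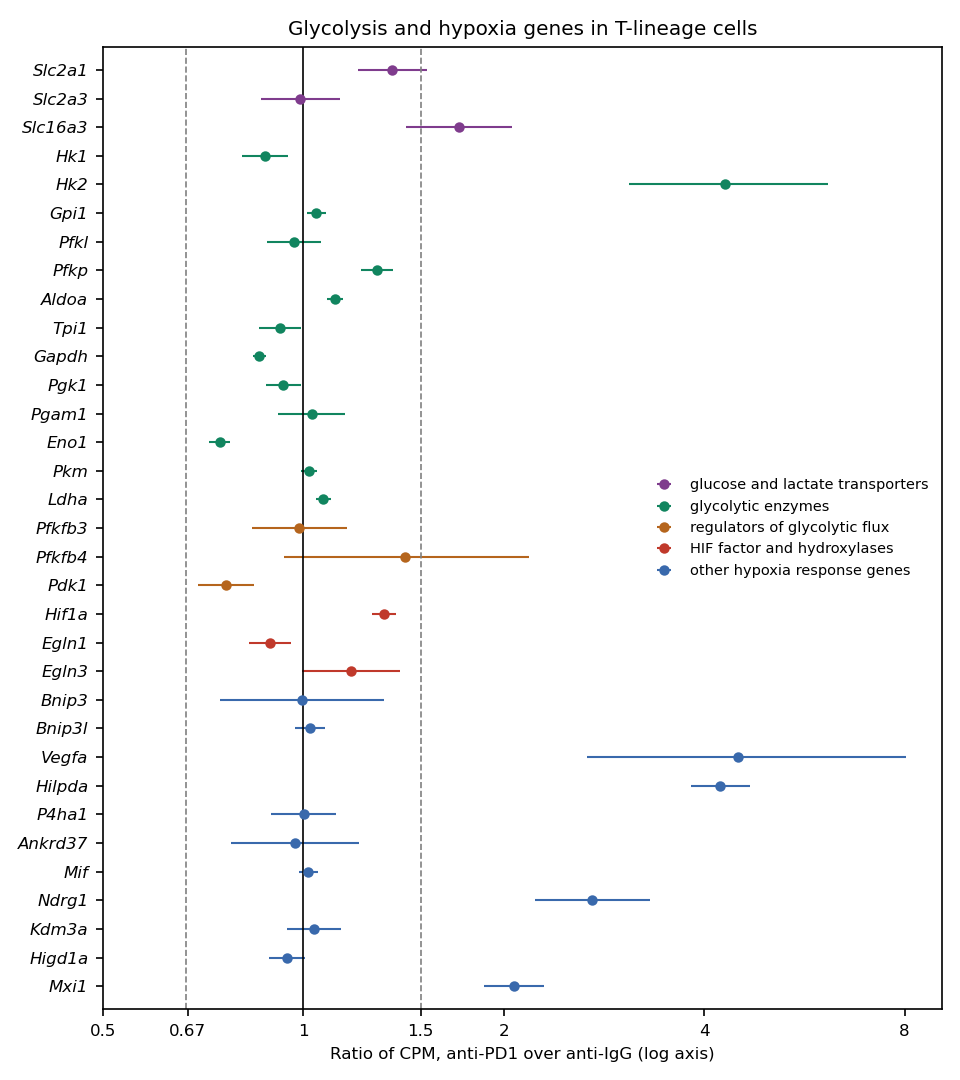
Ratio of CPM, anti-PD1 over anti-IgG, in T-lineage cells for the 33 members with at least 50 summed UMIs (log axis), coloured by role. Bars are 95% counting intervals, the solid line is 1 and the dashed lines are 1.5 and 1/1.5. Hk2, Vegfa, Hilpda, Ndrg1, Mxi1 and Slc16a3 lie right of the upper dashed line and no member lies left of the lower one.

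Among the transporters, Slc16a3, the exporter of lactate (MCT4), stood at 16.98 CPM in the anti-PD1 library and 9.93 in the anti-IgG library, a ratio of 1.71 (1.43 to 2.06). Slc2a1, the glucose transporter GLUT1, stood at 33.5 in anti-PD1 and 24.6 in anti-IgG T-lineage cells, a ratio of 1.36 (1.21 to 1.53). Slc2a3, the glucose transporter GLUT3, gave 0.989 (0.863 to 1.13). The exporter and 1 of the glucose transporters were thus higher beyond counting error, and the other was level. Summed, the 3 transporters reached 71.97 CPM in the anti-PD1 library and 56.3 in the anti-IgG library, a ratio of 1.28 (1.18 to 1.38).

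The 13 glycolytic enzymes together took 3493 CPM in anti-PD1 and 3562 in anti-IgG T-lineage cells, a ratio of 0.981 (0.970 to 0.991). Their median log2 ratio was 0.0278, and 7 of 13 were higher in the anti-PD1 library. That median was 0.134 relative to the median gene. Without type 17 or gamma-delta-like cells it was -0.0156, where the median of all genes was -0.113. Its sign thus changed with the cells used, but with and without those cells it lay above the median of all genes. Of the enzymes, Hk2 alone passed 1.5. Hk2 encodes the inducible hexokinase, which takes the first step by adding a phosphate to glucose. It had 227 UMIs in 172 anti-PD1 cells and 42 UMIs in 34 anti-IgG cells, or 10.2 CPM in the anti-PD1 library and 2.37 in the anti-IgG library, a ratio of 4.31 (3.09 to 6.14). The constitutive hexokinase Hk1 went the other way, at 59.6 CPM in the anti-PD1 library and 67.97 in the anti-IgG library, a ratio of 0.877 (0.810 to 0.948).

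Below the hexokinase step the enzymes differed little, and not in 1 direction. Gpi1, which turns glucose 6-phosphate into fructose 6-phosphate, gave 1.05 (1.01 to 1.08). Of the phosphofructokinase subunits, which form the main control point, the platelet form Pfkp gave 1.29 (1.22 to 1.36) and the liver form Pfkl 0.969 (0.883 to 1.06). Aldoa, which splits the sugar, gave 1.12 (1.09 to 1.15). Tpi1, which interconverts the triose products, gave 0.923 (0.858 to 0.992). Of these 5 genes, Gpi1, Pfkp and Aldoa had intervals above 1, Tpi1 had one below 1, and that of Pfkl included 1.

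Lower glycolysis held the member with the lowest ratio. Eno1, the enolase that makes phosphoenolpyruvate, had 6026 UMIs in the anti-PD1 library and 6409 in the anti-IgG library. Its level was 270.7 CPM in the anti-PD1 library and 361.5 in the anti-IgG library, a ratio of 0.749 (0.723 to 0.776). Adding the UMIs of its near-identical copy changed the ratio to 0.751. Gapdh, which makes 1,3-bisphosphoglycerate, gave 0.859 (0.840 to 0.878), and Pgk1, which draws ATP from it, 0.933 (0.878 to 0.992). Pgam1, the mutase between Pgk1 and Eno1, gave 1.03 (0.916 to 1.16). Pkm, the pyruvate kinase, gave 1.02 (0.991 to 1.05), and Ldha, which turns pyruvate into lactate, 1.07 (1.05 to 1.10). Enolase and Gapdh were thus lower while the pyruvate kinase was level and lactate dehydrogenase slightly higher. Relative to the median gene, Eno1 was at 0.806 and Gapdh at 0.924, while Pgk1 (1.004) and Tpi1 (0.993) were level. Without Eno1 and Hk2, the summed enzymes had a ratio of 1.004 (0.993 to 1.01).

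None of the 3 flux regulators passed the threshold. Pfkfb3 and Pfkfb4 make fructose 2,6-bisphosphate, the activator of phosphofructokinase, and gave 0.987 (0.836 to 1.17) and 1.42 (0.936 to 2.19). Pfkfb4 rested on 66 anti-PD1 and 37 anti-IgG UMIs. Pdk1, the kinase that inhibits pyruvate dehydrogenase and so keeps pyruvate out of the citric acid cycle, was lower in the anti-PD1 library, at 36.3 CPM against 47.4 in the anti-IgG library, a ratio of 0.765 (0.694 to 0.844).

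The transcript of the factor itself was moderately higher. Hif1a had 5527 UMIs in anti-PD1 and 3331 in anti-IgG T-lineage cells. Its level was 248.3 CPM in the anti-PD1 library and 187.9 in the anti-IgG library, a ratio of 1.32 (1.27 to 1.38). Of its prolyl hydroxylases, Egln1 (PHD2) gave 0.891 (0.830 to 0.958), or 0.959 relative to the median gene. Egln3 (PHD3), itself known as a HIF target, gave 1.18 (0.994 to 1.40), an interval that included 1. HIF-1 is controlled mostly through its protein, which these data do not measure.

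The largest differences lay in the remaining hypoxia genes, and they split the group. Hilpda, a lipid droplet protein that inhibits fat breakdown, had 2425 UMIs in 1117 anti-PD1 cells and 457 UMIs in 326 anti-IgG cells. Its level was 108.9 CPM in the anti-PD1 library and 25.8 in the anti-IgG library, a ratio of 4.23 (3.82 to 4.68). Ndrg1, a hypoxia- and stress-induced protein of vesicle traffic, stood at 20.5 in the anti-PD1 library and 7.56 in the anti-IgG library, a ratio of 2.71 (2.23 to 3.31). Mxi1, a repressor that competes with MYC for its partner MAX, stood at 59.9 in anti-PD1 and 28.9 in anti-IgG T-lineage cells, a ratio of 2.07 (1.87 to 2.30). Vegfa, the growth factor of blood vessels, had few UMIs, 96 in the anti-PD1 library and 17 in the anti-IgG library, and a ratio of 4.50 (2.67 to 8.04).

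The other hypoxia genes with enough UMIs were close to level. Bnip3 and Bnip3l, which target mitochondria for autophagy, gave 0.996 (0.750 to 1.32) and 1.02 (0.971 to 1.08). P4ha1, a collagen prolyl hydroxylase, gave 1.00 (0.895 to 1.12), and Ankrd37, an ankyrin repeat protein, 0.971 (0.778 to 1.21). Mif, a cytokine, gave 1.02 (0.985 to 1.05), Kdm3a, a histone H3 lysine demethylase, 1.04 (0.944 to 1.14), and Higd1a, a mitochondrial protein, 0.945 (0.887 to 1.01). So 4 of the 11 measured genes of this role passed 1.5 and 7 had intervals that included 1. The promoters of Bnip3, Ankrd37 and P4ha1 printed above hold the core, as do those of Hk2, Slc16a3 and Mxi1. Taking the 3 flux regulators, both hydroxylases and the 12 other genes as 17 HIF targets, 10 of 16 measured were higher, with a median log2 ratio of 0.0288. Their summed level was 1024 CPM in the anti-PD1 library and 904.7 in the anti-IgG library, a ratio of 1.13 (1.11 to 1.16), and 1.04 (1.02 to 1.06) without Hilpda.

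Differences of the same kind were seen in shares of cells at equal depth. With each cell thinned to 1000 UMIs (51 anti-PD1 and 34 anti-IgG T-lineage cells were shallower and left out), 8.07% (7.32 to 8.86) of anti-PD1 and 1.93% (1.52 to 2.43) of anti-IgG T-lineage cells had a UMI of Hilpda. Before thinning the shares were 22.4% in the anti-PD1 library and 8.67% in the anti-IgG library. Among B-like cells, whose median depths were 2389 UMIs in the anti-PD1 library and 2730 in the anti-IgG library, the thinned shares for Hilpda were 2.92% (0.801 to 7.31) in the anti-PD1 library and 3.51% (0.428 to 12.1) in the anti-IgG library. The anti-IgG share in T-lineage cells therefore did not exceed that of B-like cells. For Eno1 the thinned shares ran the other way, at 22.4% (21.3 to 23.6) in anti-PD1 and 28.6% (27.2 to 30.1) in anti-IgG T-lineage cells. The Clopper-Pearson method was used for these intervals.

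Markers of some other cell types were higher in the anti-PD1 library and those of others lower. In T-lineage cells the 10 macrophage markers summed to 14.3 CPM in the anti-PD1 library and 8.86 in the anti-IgG library, with 8 of 10 higher in the anti-PD1 library and none at 0. The 10 conventional dendritic markers summed to 24.5 CPM in the anti-PD1 library and 15.85 in the anti-IgG library, with 6 of 10 higher. Clec9a was at 0 in both libraries and Flt3 in the anti-IgG library. Lower in the anti-PD1 library were the summed markers of plasmacytoid dendritic cells, at 27.4 CPM in the anti-PD1 library and 36.3 in the anti-IgG library, and of endothelial cells, at 62.6 in the anti-PD1 library and 74.3 in the anti-IgG library. Fibroblast markers gave a ratio of 0.822 and B cell markers 0.918. The 12 heat shock and dissociation genes reached 5567 CPM in the anti-PD1 library and 4778 in the anti-IgG library, with 4 of 12 higher. Without type 17 or gamma-delta-like cells the ratios were 3.71 for Hilpda, 5.28 for Vegfa, 2.76 for Ndrg1, 1.90 for Mxi1, 1.82 for Slc16a3 and 2.71 for Hk2. The part of the other transcripts in the ratios was not tested.

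T-lineage cells were next divided by markers that are not members. The classes were proliferating-like (cell cycle genes), type 17 or gamma-delta-like (Il17a, Il23r and receptor segments among its markers), NK-receptor-like, Treg-like (Foxp3), CD4 and CD8 effector-like, CD4 and CD8 naive-like, and the remaining other T-lineage cells. B-like and plasmacytoid dendritic-like cells were compared beside them, which makes 11 types with at least 50 cells in each library. Type 17 or gamma-delta-like cells were 763 (15.3% of T-lineage cells) in the anti-PD1 library and 368 (9.79%) in the anti-IgG library. CD4 effector-like cells were 426 (8.53%) in the anti-PD1 library and 598 (15.9%) in the anti-IgG library.

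The summed enzymes spanned 2025 to 5173 CPM over the 11 types in the anti-PD1 library and 2005 to 5785 in the anti-IgG library. In the anti-PD1 library their summed level was highest in proliferating-like cells, at 5173 CPM (5067 to 5282), and Treg-like cells, at 4992 (4856 to 5132), whose intervals overlapped. Type 17 or gamma-delta-like cells followed with 4109 (4045 to 4174) and CD4 effector-like cells with 3846 (3754 to 3939). CD8 effector-like, other T-lineage and NK-receptor-like cells lay together between 3025 and 3080. CD4 naive-like cells had 2666, plasmacytoid dendritic-like cells 2321, B-like cells 2218 and CD8 naive-like cells 2025 (1901 to 2155). In the anti-IgG library proliferating-like cells were again highest, at 5785 (5665 to 5908), then Treg-like cells at 4632 (4485 to 4782). The lowest 3 types there, at 2005 to 2098, were plasmacytoid dendritic-like, B-like and CD8 naive-like cells, whose intervals overlapped. Proliferating-like cells were also the deepest T class, with medians of 9979 UMIs per cell in the anti-PD1 library and 9803 in the anti-IgG library.

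Between antibodies the summed enzymes moved by small amounts and in both directions. The ratio was above 1 in 6 of 11 types, and it lay between 0.894 (0.868 to 0.921) in proliferating-like cells and 1.16 (1.07 to 1.25) in plasmacytoid dendritic-like cells, where it was 0.998 with cells thinned to 1000 UMIs. In B-like cells, at 1.105 (0.986 to 1.24), most genes were higher in the anti-PD1 library (66.9%). The median log2 ratio there was 0.227 for all genes, 0.285 for the measured enzymes and 0.292 for the measured HIF targets. The summed HIF targets were above 1 in 10 of 11 types. Of those 10, the interval included 1 in proliferating-like, CD4 naive-like, B-like and plasmacytoid dendritic-like cells. In plasmacytoid dendritic-like cells the macrophage markers stood at 688.4 CPM in the anti-PD1 library and 442.3 in the anti-IgG library, with 8 of 10 higher. Ms4a7 was at 0 in both libraries, and in the anti-IgG library each of the others but Cd68 was at 0. Their part in the ratios of these cells was not tested. Treg-like cells had the highest of these ratios, 1.33 (1.22 to 1.45), with 1454 CPM in the anti-PD1 library and 1093 in the anti-IgG library. CD8 naive-like cells were the exception at 0.923 (0.804 to 1.06). Without Hilpda the ratio of the HIF targets in Treg-like cells was 1.13, in type 17 or gamma-delta-like cells 1.01 and in proliferating-like cells 0.994. The summed transporters were above 1 in 9 of 11 types and reached 154.8 in anti-PD1 and 112.1 in anti-IgG Treg-like cells. Their interval lay above 1 only in Treg-like, CD4 naive-like and other T-lineage cells.

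**Figure D2:**
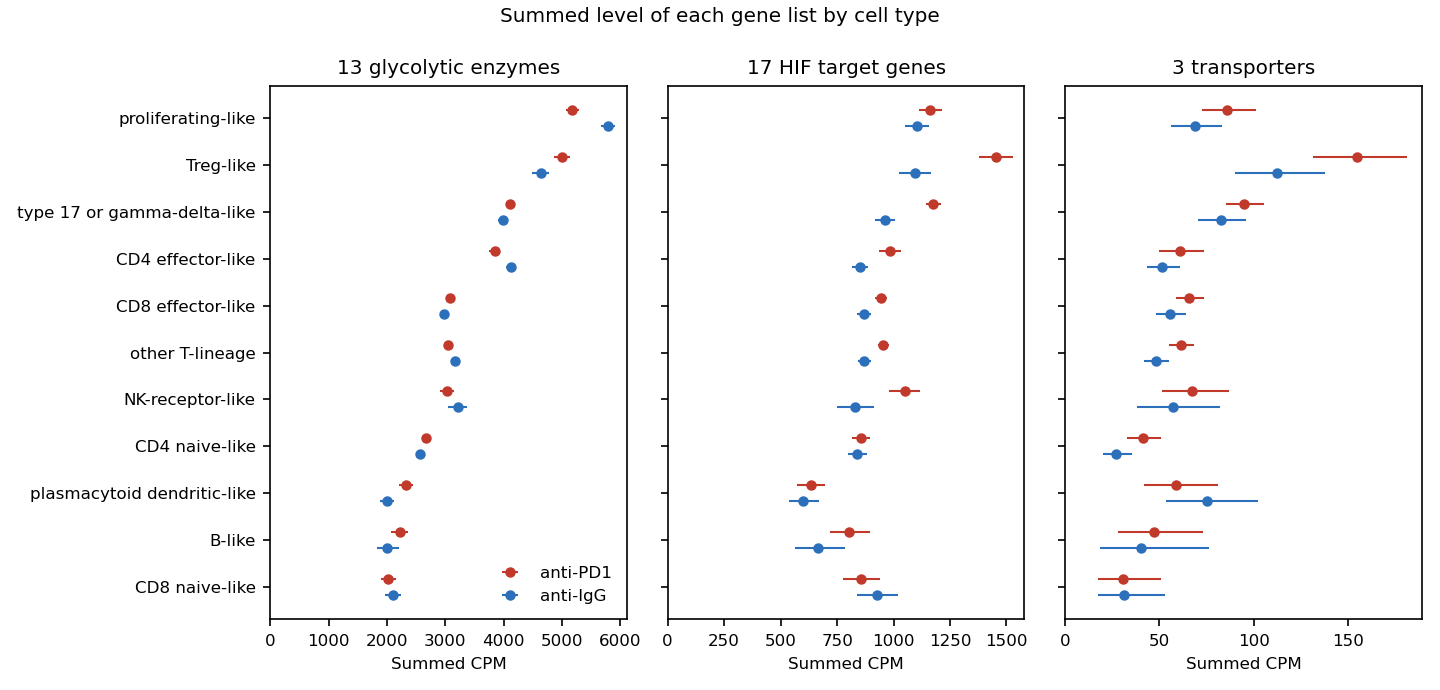
Summed CPM of the 13 glycolytic enzymes, the 17 HIF targets and the 3 transporters in 11 cell types, with the anti-PD1 library (red) above the anti-IgG library (blue) in each row and 95% Poisson counting intervals. Types are ordered by the enzymes in the anti-PD1 library, from 5173 in proliferating-like cells down to 2025 in CD8 naive-like cells. The HIF targets lie higher in the anti-PD1 library in 10 of 11 types and the enzymes in 6, not all of them beyond counting error.

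Hilpda was higher in each T class that could be measured. Its level was 271.0 CPM in anti-PD1 and 68.2 in anti-IgG type 17 or gamma-delta-like cells, a ratio of 3.98 (3.33 to 4.78). In Treg-like cells it was 280.1 in the anti-PD1 library and 52.99 in the anti-IgG library, with a ratio of 5.29 (3.83 to 7.47). CD4 effector-like cells had 121.8 CPM in the anti-PD1 library and 19.8 in the anti-IgG library, a ratio of 6.15 (4.52 to 8.49). CD8 effector-like cells had 41.4 in the anti-PD1 library and 13.5 in the anti-IgG library. The ratio passed 1.5 in 8 of 8 T classes with at least 20 summed UMIs, and 7 of those intervals lay above 1. The lowest was 1.51 (0.897 to 2.59) in CD4 naive-like cells, and CD8 naive-like cells had too few UMIs. In B-like cells the ratio was 1.58 (0.643 to 4.43), from 20 anti-PD1 and 7 anti-IgG UMIs. The median log2 ratio of all genes in B-like cells was 0.227.

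Ndrg1 passed 1.5 in 7 of 7 measured T classes. Its highest level was in Treg-like cells, at 70.0 CPM in the anti-PD1 library and 25.9 in the anti-IgG library, a ratio of 2.71 (1.64 to 4.64). Mxi1 was above 1 in 9 of 9 and passed 1.5 in 6 of 9. It was also highest in Treg-like cells, at 174.6 in the anti-PD1 library and 76.4 in the anti-IgG library. In CD4 naive-like cells Mxi1 was 34.9 in the anti-PD1 library and 31.1 in the anti-IgG library, a ratio of 1.12 (0.785 to 1.60), so its difference was not detectable there at this depth.

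In the anti-PD1 library Hk2 was more concentrated in 1 class than these genes. Type 17 or gamma-delta-like cells held 138 of the anti-PD1 UMIs (60.8%) and 14 of the anti-IgG UMIs (33.3%). The same cells held 42.6% of the anti-PD1 and 30.2% of the anti-IgG UMIs of Hilpda. For Mxi1 the shares were 29.8% (anti-PD1) and 18.1% (anti-IgG), and for Ndrg1 18.2% (anti-PD1) and 14.2% (anti-IgG). The class itself was larger in the anti-PD1 library, at 15.3% of T-lineage cells against 9.79% in the anti-IgG library. Of all T-lineage UMIs it held 3811464 of 22258208 (anti-PD1) and 2023859 of 17729547 (anti-IgG). The Hk2 level there was 36.2 CPM in the anti-PD1 library and 6.92 in the anti-IgG library, a ratio of 5.23 (3.02 to 9.83). Of these cells, 13% in the anti-PD1 library and 2.99% in the anti-IgG library had a UMI. At 1000 UMIs per cell it was 31 of 758 anti-PD1 cells, or 4.09% (Clopper-Pearson, 2.80 to 5.76), and 0 of 367 anti-IgG cells (0 to 1%). The count of 0 is for cells thinned to that depth, where that interval allows a share with a UMI of up to 1%. CD4 effector-like cells had 13.2 CPM in the anti-PD1 library and 2.29 in the anti-IgG library, from 23 anti-PD1 and 6 anti-IgG UMIs. The highest Hk2 ratio was 9.56 in other T-lineage cells, which had the lowest anti-IgG level, at 0.469 CPM. Of the 5 measured T classes, 4 had intervals above 1. Treg-like cells had 3 anti-PD1 UMIs and 1 anti-IgG UMI. In proliferating-like cells, where the summed enzymes were highest, Hk2 had 11 anti-PD1 and 12 anti-IgG UMIs and a ratio of 0.7995 (0.3196 to 1.98). With T-lineage cells thinned to 1000 UMIs, the Hk2 ratio was 7.53, with a UMI in 48 anti-PD1 and only 4 anti-IgG cells. Heat shock and dissociation genes in type 17 or gamma-delta-like cells stood at 6784 CPM in the anti-PD1 library and 5391 in the anti-IgG library, and macrophage markers at 10.2 in the anti-PD1 library and 9.88 in the anti-IgG library. Their part in the result was not tested.

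**Figure D3:**
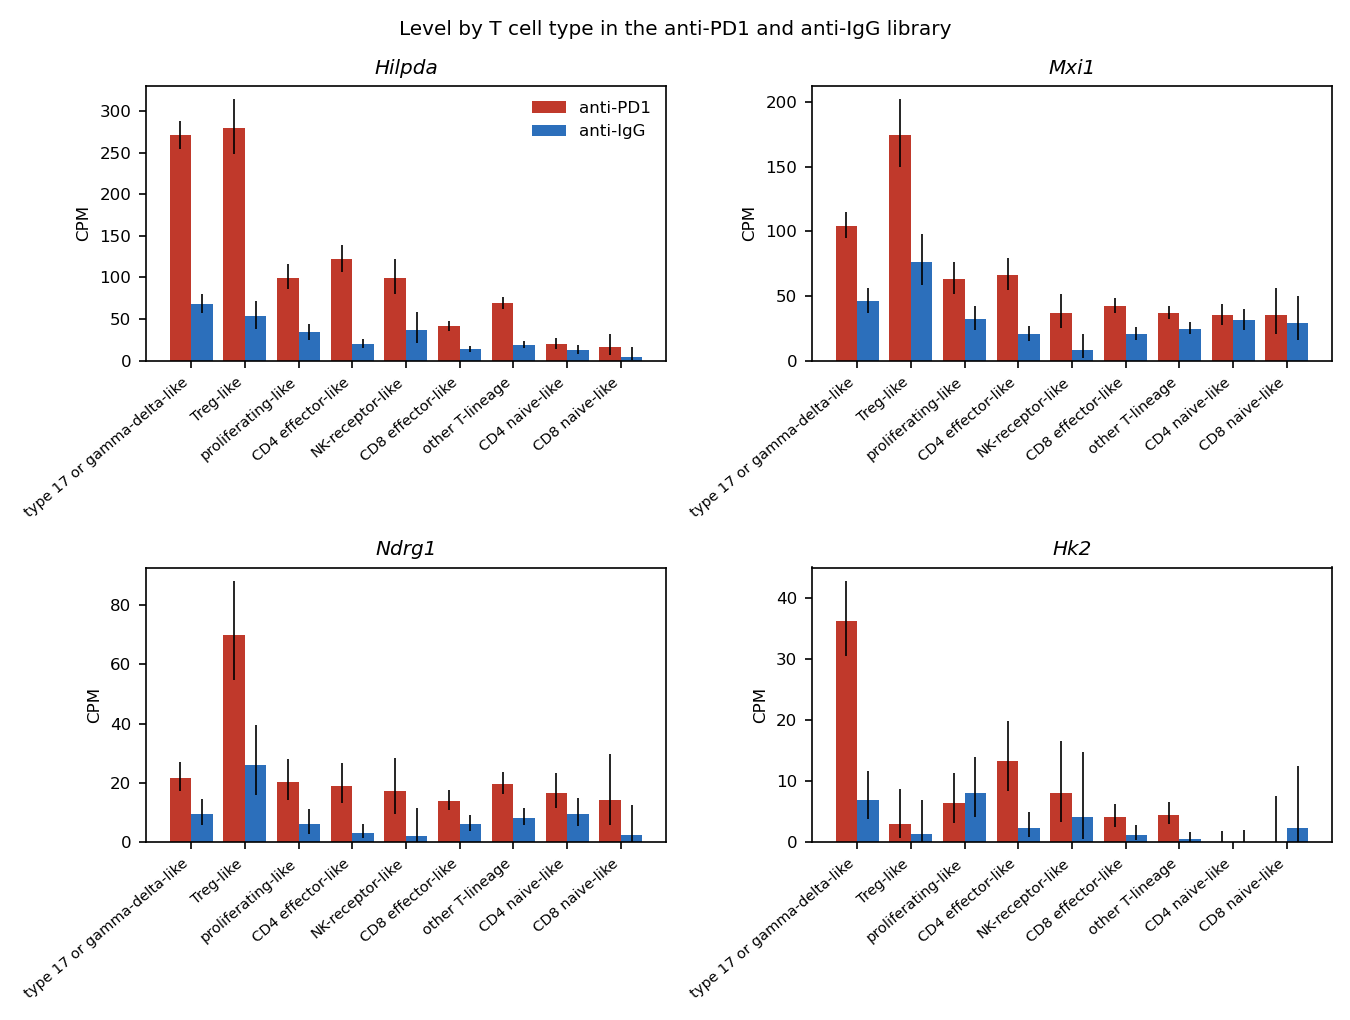
CPM of Hilpda, Mxi1, Ndrg1 and Hk2 in 9 T cell classes, with the anti-PD1 library (red) left of the anti-IgG library (blue) and 95% Poisson counting intervals. In type 17 or gamma-delta-like cells Hilpda is 271.0 in the anti-PD1 library and 68.2 in the anti-IgG library, and Hk2 is 36.2 in the anti-PD1 library and 6.92 in the anti-IgG library.

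Eno1 and Hif1a had small differences that recurred across classes. Eno1 was below 1 in 9 of 9 T classes, with 8 intervals below 1. Its lowest ratio was 0.570 (0.466 to 0.698) in NK-receptor-like cells, at 229.6 CPM in the anti-PD1 library and 402.6 in the anti-IgG library. In those NK-receptor-like cells heat shock and dissociation genes stood at 6143 CPM in the anti-PD1 library and 3676 in the anti-IgG library, with 6 of 12 higher, and their part was not tested. Hif1a was above 1 in 8 of 9, with CD4 effector-like cells at 355.1 in the anti-PD1 library and 229.4 in the anti-IgG library, a ratio of 1.55 (1.38 to 1.73). Treg-like cells had the highest Hif1a level in both libraries and no difference beyond counting error, at 530.6 in anti-PD1 and 548.3 in anti-IgG cells, a ratio of 0.968 (0.852 to 1.10). Pdk1 was below 1 in 8 of 9 classes, and 3 of those intervals lay below 1.

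Slc16a3 and Vegfa were uneven over the classes. Slc16a3 was above 1 in 6 of 6 measured classes and passed 1.5 in 4. In type 17 or gamma-delta-like cells, which held 41.3% of its anti-PD1 and 40.9% of its anti-IgG T-lineage UMIs, it stood at 40.9 CPM in the anti-PD1 library and 35.6 in the anti-IgG library, a ratio of 1.15 (0.865 to 1.54). In CD8 effector-like cells, where it was sparse, it had 33 anti-PD1 and 8 anti-IgG UMIs and a ratio of 3.04 (1.38 to 7.61). Vegfa had its highest count in other T-lineage cells, with 40 anti-PD1 and 6 anti-IgG UMIs, a ratio of 5.10 (2.15 to 14.7). CD8 effector-like cells had 17 anti-PD1 and 4 anti-IgG Vegfa UMIs, and NK-receptor-like cells 17 anti-PD1 and 0 anti-IgG UMIs, while the other 6 classes had at most 5 in either library.

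A few members stood out in 1 class and not over T-lineage cells. In CD8 naive-like cells Tpi1 had 8 anti-PD1 and 23 anti-IgG UMIs, a ratio of 0.318 (0.123 to 0.736). P4ha1 in the same class had 23 anti-PD1 and 9 anti-IgG UMIs, a ratio of 2.34 (1.04 to 5.74). Kdm3a in NK-receptor-like cells had 49 anti-PD1 and 12 anti-IgG UMIs, a ratio of 2.29 (1.203 to 4.74). The 10 conventional dendritic markers in NK-receptor-like cells summed to 46.8 CPM in the anti-PD1 library and 26.4 in the anti-IgG library, with 4 of 10 higher, beside the heat shock values given above. Their part was not tested. These 3 ratios were picked as the most extreme for their gene and rest on few UMIs. Without the anti-PD1 cell with most P4ha1 UMIs, that ratio was 2.17 (0.955 to 5.40).

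Within Treg-like cells, where Hilpda, Ndrg1 and Mxi1 were highest in the anti-PD1 library, macrophage markers summed to 29 UMIs (28.6 CPM) in the anti-PD1 library and 8 UMIs (9.86 CPM) in the anti-IgG library, with 5 of 10 higher. C1qa, C1qb, Fcgr1 and Mrc1 were at 0 in the anti-PD1 library, and Csf1r, Adgre1, Fcgr1, Mrc1 and Ms4a7 in the anti-IgG library. Conventional dendritic markers there summed to 40.4 CPM in the anti-PD1 library and 13.55 in the anti-IgG library, with 4 of 10 higher. In CD4 effector-like cells, where Hilpda had its highest ratio, macrophage markers stood at 20.1 CPM in the anti-PD1 library and 7.62 in the anti-IgG library, with 6 of 10 higher. Csf1r, Adgre1 and Mrc1 were at 0 in both libraries, and Fcgr1 in the anti-IgG library. In CD8 effector-like cells the 8 cardiomyocyte markers stood at 17.85 CPM in the anti-PD1 library and 3.30 in the anti-IgG library, with 8 of 8 higher. In CD4 effector-like cells heat shock and dissociation genes stood at 5868 CPM in the anti-PD1 library and 4580 in the anti-IgG library, and in CD4 naive-like cells at 5084 in the anti-PD1 library and 5916 in the anti-IgG library. The part of these transcripts in the results was not tested.

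Members were counted against all genes in each of the 9 T classes. In type 17 or gamma-delta-like cells 5 of 31 measured members reached 1.5 (background 8.43%) and 1, Ankrd37, was at 1/1.5 or less (background 12.1%). Pfkp joined Hk2, Hilpda, Ndrg1 and Mxi1 there, at 281.3 CPM in the anti-PD1 library and 186.3 in the anti-IgG library. In Treg-like cells 6 of 30 reached 1.5 (background 8.69%) and 0 reached 1/1.5 (background 14.5%). Slc2a1 was among them, at 50.3 CPM in the anti-PD1 library and 27.1 in the anti-IgG library, a ratio of 1.85 (1.10 to 3.21). In CD8 effector-like cells 7 of 33 reached 1.5 (background 7.47%) and 1, Egln3, was at 1/1.5 or less (background 10.9%). In CD4 effector-like cells the counts were 6 of 31 (background 8.29%) and 0 (background 13.5%). In CD4 naive-like cells they were 4 of 28 (background 7.61%) and 1, Slc2a3 (background 12.8%). In other T-lineage cells 5 of 33 reached 1.5 (background 7.05%), namely Slc2a1, Hk2, Vegfa, Hilpda and Ndrg1, and 0 reached 1/1.5 (background 13.1%).

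The remaining 3 classes also had members on both sides. In proliferating-like cells 4 of 30 reached 1.5 (background 7.78%), namely Slc16a3, Hilpda, Ndrg1 and Mxi1, and 2, Pdk1 and P4ha1, were at 1/1.5 or less (background 12%). In NK-receptor-like cells 4 of 26 reached 1.5 (background 12.9%), namely Slc2a1, Hilpda, Kdm3a and Mxi1, and 4, Slc2a3, Eno1, Pdk1 and Bnip3, were at 1/1.5 or less (background 13.8%), both shares near the background. In CD8 naive-like cells 1 of 21, P4ha1, reached 1.5 (background 12.4%) and 1, Tpi1, was at 1/1.5 or less (background 14.9%), so both shares lay below the background.

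**Figure D4:**
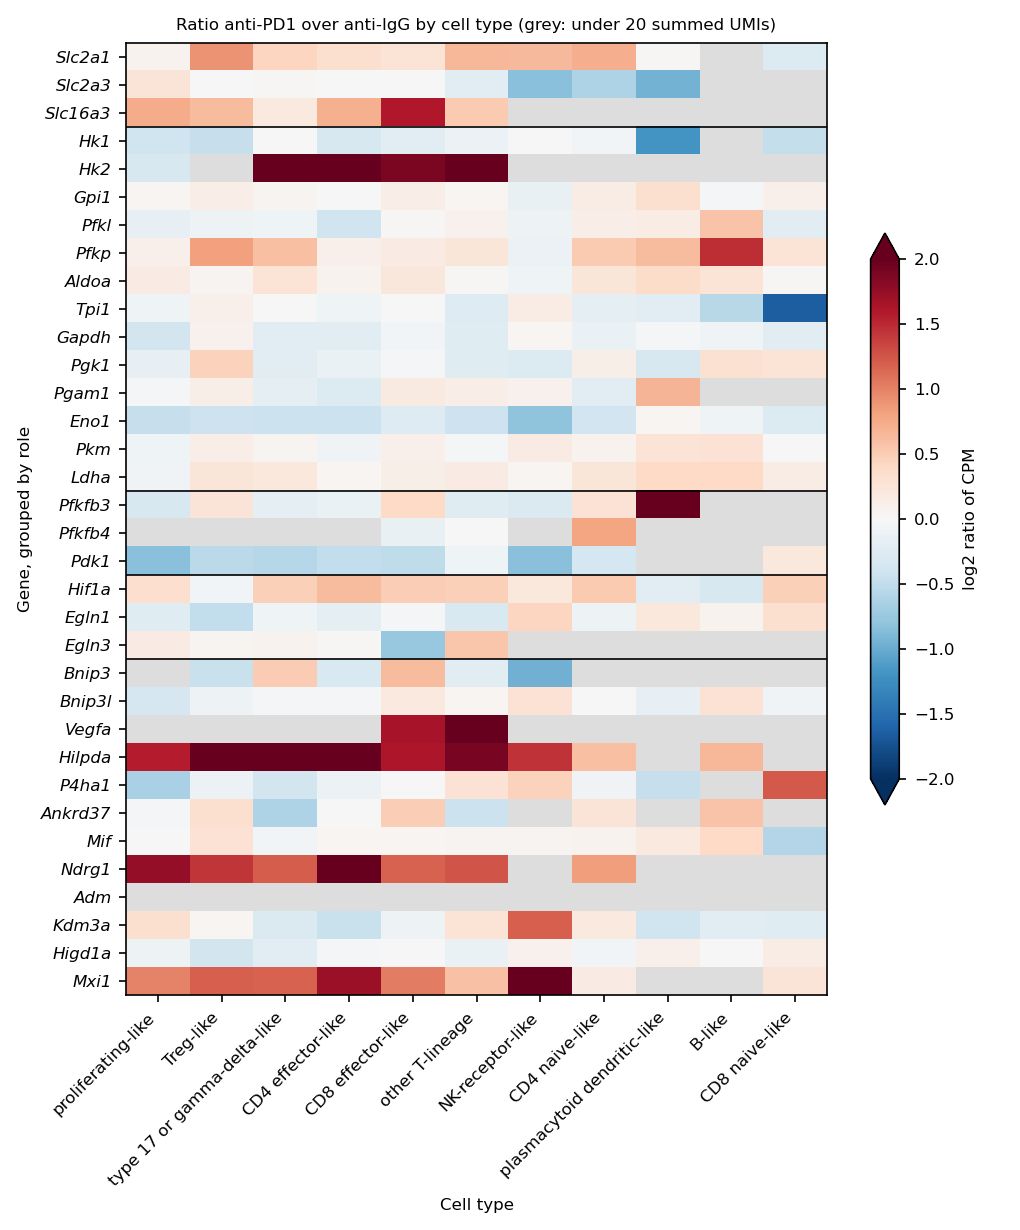
Log2 ratio of CPM, anti-PD1 over anti-IgG, for the 34 members (rows, grouped by role) in 11 cell types (columns). Red is higher and blue lower in the anti-PD1 library, the scale ends at -2 and 2, and grey marks under 20 summed UMIs. Pfkfb3 in plasmacytoid dendritic-like cells (20 anti-PD1 and 0 anti-IgG UMIs) is drawn against a floor of 3 UMIs. Hilpda, Ndrg1 and Mxi1 form red rows across the T classes, Hk2 is red in 4 of its 5 measured T classes, and Eno1 is blue in 9 of 9.

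Genes of the neighbouring pathway were compared in the same way, on lists chosen with earlier results of these data known. Among 33 other genes of glycolysis and linked sugar metabolism (isozymes, pyruvate entry, the pentose phosphate path), 24 had at least 50 summed UMIs, 14 were higher in the anti-PD1 library and none passed 1.5 in either direction. Among 49 further genes of the HIF pathway and hypoxia response, 33 were measured, 23 were higher, 8 had a ratio of at least 1.5 and 1 had 1/1.5 or less. Over all genes in T-lineage cells, 36.8% were higher, 6.28% had a ratio of at least 1.5 and 9.7% had 1/1.5 or less. Epas1, the HIF-2 alpha subunit, gave 1.75 (1.48 to 2.08). Cxcr4, a chemokine receptor, gave 1.98 (1.83 to 2.14), and Tfrc, the transferrin receptor, 1.60 (1.37 to 1.86). The transcription factors Bhlhe40, Nfil3 and Rora gave 3.23 (3.08 to 3.40), 3.48 (3.15 to 3.85) and 2.09 (1.98 to 2.21). Wsb1, a ubiquitin ligase adaptor, gave 1.61 (1.503 to 1.722). Ddit4, an inhibitor of mTOR signalling that hypoxia and glucocorticoids induce, went the other way at 0.494 (0.466 to 0.524). The eighth, Hmox1, gave 1.63 (0.947 to 2.89) from 43 anti-PD1 and 21 anti-IgG UMIs. Several of these genes are also known to answer other signals in T cells, and oxygen was not measured.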

How the data were processed

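Single-cell RNA was measured in cells from infarcted mouse hearts, in 1 anti-PD1 and 1 anti-IgG library. The deposited tables hold UMI counts for every gene in every barcode and were not normalized. The matrices name Cell Ranger 7.1.0, per the file headers, whereas version 7.2.0, Seurat 4.4.0 and the mm10 build appear in the submitters' processing notes. The gene annotation was not given in the sources used here.

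The libraries held 6026 anti-PD1 and 4380 anti-IgG barcodes, with 29046341 UMIs in the anti-PD1 and 22806806 in the anti-IgG library. Cells were assigned by raw UMIs of marker genes that are not members. Cd3-positive cells with markers of another type (355 in the anti-PD1 and 234 in the anti-IgG library) and cells of no type (440 in the anti-PD1 and 300 in the anti-IgG library) were left out. UMIs were summed per library and type and divided by their total, and ratios have exact 95% intervals conditional on the summed UMIs. Genes needed 50 summed UMIs in T-lineage cells and 20 in a type. No test was run, since each group has 1 library; the interval code was tested on simulated data. Every member is named, and other pathway genes are named at a ratio of at least 1.5 or at most 1/1.5 with at least 100 summed UMIs; Hmox1 was named in addition, after its value was seen. Members, lists and markers were chosen with earlier results of these data known. Scrublet's automatic threshold marked 0 doublets, so the highest-scoring 272 anti-PD1 and 149 anti-IgG cells were left out as an alternative. Other alternatives changed depth, class mix, cell weight, scaling, filters and gates. Promoters came from RefSeq (GRCm38.p6), and orientation was checked against GENCODE transcripts, which did not match every start. Python 3.11.15, numpy 2.4.6, scipy 1.17.1, pandas 2.3.3, scanpy 1.11.5 and matplotlib 3.10.9 were used.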

Additional observations from a re-analysis of the deposited data

Results flagged for a closer look

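The summed glycolytic enzymes differed in direction between cell types, with counting intervals on opposite sides of 1. The ratio was below 1 in proliferating-like (0.894), CD4 effector-like (0.933) and other T-lineage cells (0.960). It was above 1 in type 17 or gamma-delta-like (1.03), CD8 effector-like (1.04), Treg-like (1.08) and plasmacytoid dendritic-like cells (1.16), where it was 0.998 with cells thinned to 1000 UMIs. With 1 library per group the difference between types was not tested.

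Single members did the same. Pgk1, which draws ATP from 1,3-bisphosphoglycerate, had a ratio of 1.38 in Treg-like cells, at 159.8 CPM in the anti-PD1 library and 115.8 in the anti-IgG library, and 0.850 in other T-lineage cells. Mif, the cytokine, had 1.22 in Treg-like and 0.667 in CD8 naive-like cells. The CD8 naive-like value rests on 135 anti-PD1 and 185 anti-IgG UMIs, 46 of the anti-IgG ones in 1 cell, and without that cell it was 0.870 (0.681 to 1.11), an interval that includes 1. Without the anti-PD1 cell with most of its UMIs, Mif in Treg-like cells was 1.18 (0.998 to 1.40). Bnip3l, the mitophagy receptor, had 1.15 in CD8 effector-like and 0.796 in proliferating-like cells. Without the anti-IgG cell with most of its UMIs, the proliferating-like ratio was 0.814 (0.650 to 1.02), an interval that includes 1. These differences between types were not tested either.

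Macrophage-like and endothelial-like cells, each with under 50 cells in 1 library and described after the data were seen, also held differences between the libraries. Macrophage-like cells had ratios of 8.83 for Vegfa, 2.999 for Hilpda and 2.67 for Ndrg1. Without the anti-PD1 cell with most UMIs of the gene these were 5.12 for Vegfa, 1.99 for Hilpda and 2.25 (0.908 to 6.70) for Ndrg1. Endothelial-like cells had 3.35 for Bnip3, 1.89 for Hk1 and 1.71 for Tpi1. Without the anti-PD1 cell with most UMIs of the gene, the intervals of Hk1 (0.903 to 2.95) and Tpi1 (0.853 to 2.46) included 1.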

How the results depend on the processing

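The number of members at 1.5 or more stayed between 5 and 7 under the alternatives, and 0 reached 1/1.5. Hk2, Hilpda, Ndrg1 and Mxi1 were among them each time. Under the same alternatives, 4.92% to 9.74% of all genes reached 1.5, and 6.31% to 14.3% were at 1/1.5 or less. With thinned cells 7 of 33 members reached 1.5, against 9.13% of all genes. With T classes weighted to equal shares Slc16a3 was at 1.49. Centred on the median gene, the median log2 ratio of the enzymes was 0.134. Of the other summary values for T-lineage cells, 44 stayed within the counting interval or, for counts, within 1.5 times. Single T-lineage ratios did so in 399 cases and moved in 37, and ratios within cell types did so in 165 and moved in 17. Those within types were ratios of the summed lists, and of chosen genes or lists without the cell with most of their UMIs. Ratios of single genes within types were not recomputed under the other alternatives. No T-lineage ratio past 1.5 turned to the other side of 1, and 12 counts over the types stayed within 1.5 times. In thinned cells the summed transporters were at 5.21 in NK-receptor-like cells (1.18 before) and 2.36 in proliferating-like cells (1.25 before), and the HIF targets at 1.14 in Treg-like cells (1.33 before). Even before thinning the transporters had only 59 anti-PD1 and 28 anti-IgG UMIs in NK-receptor-like cells. In proliferating-like cells they had 149 anti-PD1 and 104 anti-IgG UMIs, and thinning leaves fewer. In thinned cells the enzymes turned below 1, at 0.964 in B-like cells (1.105 before) and 0.998 in plasmacytoid dendritic-like cells (1.16 before). Bnip3 was 0.685 in thinned cells. Leaving out type 17 or gamma-delta-like cells and leaving out shared barcodes or the cell with most UMIs of a gene were choices made after seeing the data. No paired analysis was possible because each group has 1 library. Depth limits genes with few UMIs (Vegfa, Pfkfb4, Bnip3, Ankrd37, Adm), above all within single cell types, and counting intervals hold no variation between animals or between preparations.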

Other observations

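Macrophage-like cells, compared after the data were seen, were 107 in the anti-PD1 library and 47 in the anti-IgG library. Their 13 glycolytic enzymes were lower in the anti-PD1 library, at 3127 CPM (2985 to 3274) against 4215 (3982 to 4457) in the anti-IgG library, a ratio of 0.742 (0.690 to 0.798). Of the 1230 anti-IgG UMIs behind it 290 lay in 1 cell, and without that cell the ratio was 0.875 (0.808 to 0.948). Pkm, the pyruvate kinase, stood at 393.9 in anti-PD1 and 688.7 in anti-IgG cells, a ratio of 0.572. In 1 anti-IgG cell lay 63 of its 201 anti-IgG UMIs, and without that cell the ratio was 0.751 (0.605 to 0.934). Hif1a stood at 95.9 in the anti-PD1 library and 229.6 in the anti-IgG library, a ratio of 0.418 (0.288 to 0.605), while it was above 1 in 8 of 9 T classes. Without the anti-IgG cell that held 16 of its 67 anti-IgG UMIs it was 0.529 (0.355 to 0.789). Vegfa had 53 UMIs in 12 anti-PD1 cells, 23 of them in 1 cell, and 3 UMIs in 2 anti-IgG cells, so its ratio of 8.83 (2.86 to 44.2) rests on few cells. Hilpda had 66 UMIs in 12 anti-PD1 cells, 24 of them in 1 cell, and 11 UMIs in 7 anti-IgG cells. Other markers differed in these cells as well. Heat shock and dissociation genes had 6779 anti-PD1 and 1817 anti-IgG UMIs, a ratio of 1.86 with 12 of 12 higher, and proliferation markers stood at 97.6 CPM in the anti-PD1 library and 315.2 in the anti-IgG library, with 0 of 8 higher. Cardiomyocyte markers stood at 111.3 in the anti-PD1 library and 27.4 in the anti-IgG library, with 7 of 8 higher. Their part was not tested.

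Endothelial-like cells were 36 in the anti-PD1 library and 51 in the anti-IgG library. Ndrg1 was level there, at 274.7 CPM in the anti-PD1 library and 255.3 in the anti-IgG library, a ratio of 1.08 (0.748 to 1.53), and Hk2 had no UMI in either library. Adm, nearly absent from T-lineage cells, had 9 anti-PD1 and 26 anti-IgG UMIs there. These counts are out of unequal totals, 174758 anti-PD1 and 407441 anti-IgG UMIs in endothelial-like cells. Bnip3 stood at 131.6 in the anti-PD1 library and 39.3 in the anti-IgG library, a ratio of 3.35 (1.69 to 6.79), and Gapdh at 515 in the anti-PD1 library and 871.3 in the anti-IgG library, a ratio of 0.591 (0.464 to 0.747). Of the 355 anti-IgG Gapdh UMIs 69 lay in 1 cell, and without it the ratio was 0.683 (0.533 to 0.869). Heat shock and dissociation genes had 1798 anti-PD1 and 1154 anti-IgG UMIs there, a ratio of 3.63 with 12 of 12 higher. Proliferation markers stood at 165.9 CPM in the anti-PD1 library and 721.6 in the anti-IgG library, with 0 of 8 higher. Their part was not tested.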
